A study of Saccharomyces cerevisiae with 8 samples.

Results

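The genes described here encode the proteasome of budding yeast, Saccharomyces cerevisiae, together with its transcriptional activator RPN4 and its assembly factor UMP1. They were taken by systematic name and number 34 of the 6692 genes in the deposited count table. The set holds 7 genes of the 20S alpha ring, 7 of the 20S beta ring, 10 of the 19S base, 8 of the 19S lid, RPN4 (YDL020C) and UMP1 (YBR173C). All 34 were present in the table and passed the filter on low counts, as did 5667 genes in all. They lie on 13 chromosomes, and 33 have a single coding segment in the R64 annotation. No member overlaps another annotated gene of that annotation.

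The proteasome is the protease that degrades proteins tagged with ubiquitin. Its barrel-shaped 20S core is built from outer alpha rings, which gate the entrance, and inner beta rings, which hold the active sites. A 19S regulatory particle caps the core: its base unfolds substrates with a ring of ATPases, and its lid removes the ubiquitin. Rpn4 is a short-lived activator that binds a promoter element called PACE (proteasome-associated control element) upstream of most subunit genes, and it is itself degraded by the proteasome, so that in yeast the supply of proteasomes feeds back on the expression of their genes. UMP1 encodes a chaperone of core assembly that the finished proteasome degrades.

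The study asked how defective Okazaki fragment maturation changes gene expression. RAD27, the gene deleted in the knockout, encodes the flap endonuclease that trims Okazaki fragments. Wild type and RAD27 knockout cells, with no other genotype given, were grown overnight at 30 °C in YPD, a rich glucose medium. They were then diluted into fresh YPD and kept for 4 hours at 30 or 37 °C, which made 4 groups of 2 libraries: unheated wild type, heated wild type, unheated knockout and heated knockout. All 8 libraries were made from extracted RNA with an mRNA kit, and the labels do not say whether the 2 libraries of a group came from separate cultures, or name the strain or clone.

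The libraries held between 4734266 and 5588983 counts. RAD27 (YKL113C) had 0 counts in the 4 knockout libraries, against 114 ± 6.57 CPM (counts scaled to a common library size; SD, n = 2) in unheated and 93.6 ± 4.56 CPM in heated wild type. The heated knockout libraries differed most from each other: chi-square per degree of freedom between replicates was 8.48 there, against 1.84 to 3.94 in the other groups, where counting error alone gives about 1. Levels are CPM scaled by TMM, which equalises libraries on the bulk of their genes. A gene is called changed where its adjusted p from edgeR's quasi-likelihood test on all 8 libraries, adjusted by Benjamini and Hochberg over the 5667 genes, lies under 0.05. Such a p measures the spread between these libraries, which may be technical. The culture is bulk, so fewer cells expressing a gene and less RNA per cell cannot be told apart, and CPM are shares of the mRNA rather than amounts per cell.

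Most members share a sequence upstream of their start codons. PACE is known as an element upstream of most subunit genes, so its share among them is a description and no independent support. The 9-base PACE is GGTGGCAAA on either strand. Between 250 bases before and 50 bases after the start codon, it lies in 27 of the 34 members (79.4%). Of 6001 protein-coding promoters, the members included, 72 hold it (1.2%). The shorter GTGGCAAA, which every 9-base match contains, was found in 30 members (88.2%) and in 144 promoters (2.4%). PRE5, PUP1 and RPN8 had the shorter form alone, and RPN10, RPN13, RPN4 and UMP1 had neither in this window. The first base of the 9-base element lay 84 to 183 bases before the start codon, with a median of 120, and 19 elements lay on the gene's own strand and 8 on the opposite strand. The elements of the members on which the comparisons turn are printed with 15 bases on either side, read from R64 on the strand of the gene. PUP3, PRE6, PRE2 and RPT1 stand for members with large changes, RPN1 and RPN3 for members with the element that were not called higher in the unheated knockout, and PUP1 for the short form. Capitals mark the element, which reads TTTGCCACC where it lies on the opposite strand.
PUP3, chrV:349506-349544, minus strand: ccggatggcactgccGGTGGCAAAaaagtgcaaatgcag
PRE6, chrXV:255213-255251, plus strand: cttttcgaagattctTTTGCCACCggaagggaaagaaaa
PRE2, chrXVI:732179-732217, plus strand: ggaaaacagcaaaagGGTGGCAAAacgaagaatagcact
RPT1, chrXI:174043-174081, plus strand: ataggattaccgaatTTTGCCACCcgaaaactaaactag
RPN1, chrVIII:164833-164871, minus strand: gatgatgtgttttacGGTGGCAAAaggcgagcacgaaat
RPN3, chrV:196838-196876, plus strand: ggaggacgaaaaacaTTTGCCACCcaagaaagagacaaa
PUP1, chrXV:631886-631923, minus strand: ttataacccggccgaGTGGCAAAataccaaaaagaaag

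In unheated wild type the subunit mRNAs were abundant and of similar level once divided by coding length. They ranged from 94.6 CPM per kilobase for RPN9, a lid subunit, to 332 CPM per kilobase for PRE9, an alpha subunit and the only core subunit that yeast can live without, a 3.51-fold range. Their median was 235 CPM per kilobase, against 50.8 over the 5534 tested genes with a coding length. The 8 genes with the highest level were all core subunits, and RPN9 and RPN12 (125 ± 7.86 CPM per kilobase, SD, n = 2), both of the lid, were the lowest of the subunits. Neighbours in this order often differed by less than the spread of their libraries, as the beta genes PUP3 (284 ± 4.56 CPM per kilobase) and PRE4 (284 ± 24.1) did, but the steps from RPN7 (175 ± 7.72) to RPN12 and from there to RPN9 were larger than it. RPN4 had the lowest level of all 34 members, at 81.2 CPM per kilobase, yet 65.1% of genes lay below it. UMP1 stood among the subunits at 201 CPM per kilobase.

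**Figure D1:**
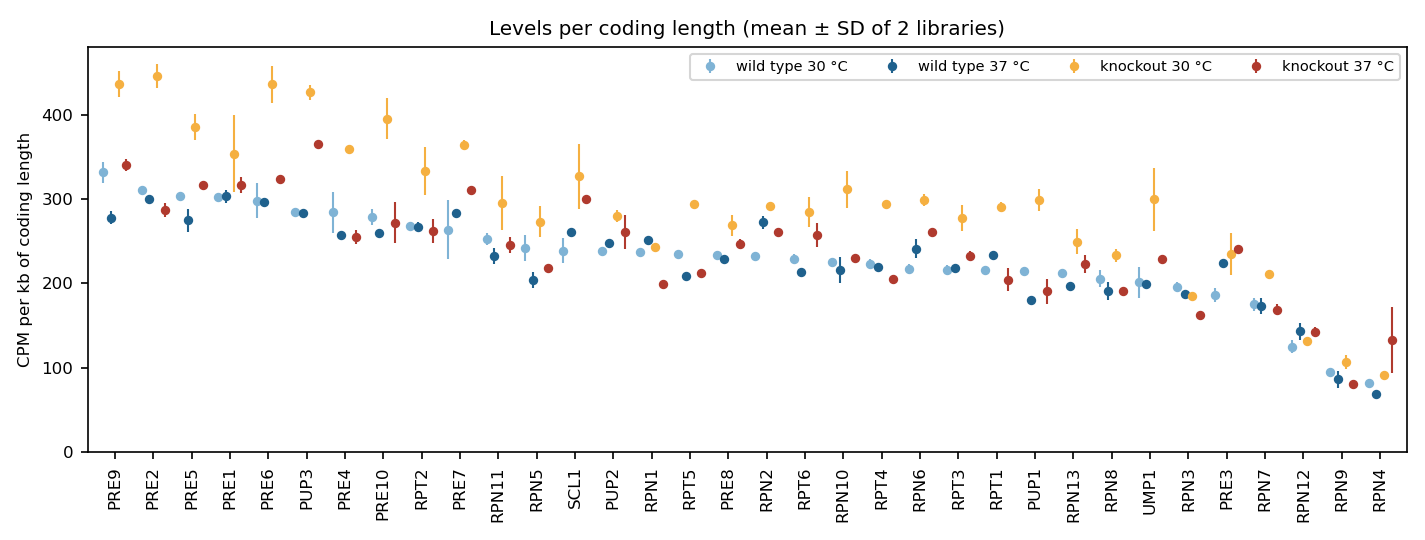
Level of each member per coding length (vertical axis, CPM per kilobase, starting at 0), ordered by the level in unheated wild type; points are means of 2 libraries and bars their SD, with colours for the 4 groups. PRE9 is highest at 332 and RPN4 lowest at 81.2 CPM per kilobase in unheated wild type, and the points of the unheated knockout stand highest for 29 of the 34 members.

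Proteasome genes stood higher in the knockout than in wild type before any heating. Summed over the 32 subunits, the level was 8024 and 8136 CPM in unheated wild type and 10012 and 10122 CPM in the unheated knockout, a rise of 24.6% in the mean. The libraries of both groups were far apart and close within each group. As a share of all raw counts, with no TMM scaling, the subunits took 0.760% and 0.751% in wild type and 0.919% and 0.980% in the knockout. By gene, 26 of the 34 members were called higher and 0 lower, where 14.6% of all genes tested were called higher and 15% lower. The members' median log2 fold change was 0.33, with quartiles of 0.23 and 0.46, and that of all genes was -0.00. The range ran from -0.08 for RPN3 to 0.59 for PUP3. In 32 members both knockout libraries lay above both wild type libraries, which held for 34.1% of all genes. Of the others, RPN12 overlapped between the groups and RPN3 lay lower. Of the 26 calls 17 were kept under every alternative run, and the others were lost under at least 1 of them, mostly with 1 library left out.

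The core genes were called nearly throughout. All 7 alpha genes and 6 of 7 beta genes were called higher, with median log2 fold changes of 0.40 and 0.47. PUP3 (YER094C; R64 chrV:348729-349346, minus strand), a beta subunit without an active site, stood at 178 and 174 CPM in unheated wild type and at 260 and 268 CPM in the unheated knockout. That was a rise of 50.2% (log2 0.59 ± 0.06, SE; edgeR adjusted p = 4.01e-05). PRE6 (YOL038W; chrXV:255337-256101, plus strand), an alpha subunit, rose from 217 and 240 CPM to 322 and 346 CPM, by 0.55 ± 0.07 on the log2 scale (edgeR adjusted p = 0.000153). Neither gene's libraries overlapped between the groups. PRE1, the beta gene that was not called, gave 0.23 ± 0.08 (edgeR adjusted p = 0.0586), and its knockout libraries were spread from 192 to 231 CPM.

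The active-site subunits rose together in the unheated knockout. PRE2 (YPR103W; chrXVI:732349-733212, plus strand), which carries the chymotrypsin-like site, stood at 269 and 269 CPM in wild type and at 377 and 395 CPM in the knockout, a rise of 0.52 ± 0.06 log2 (edgeR adjusted p = 9.07e-05). PUP1 (YOR157C), with the trypsin-like site, stood at 168 and 169 CPM in wild type and at 242 and 228 CPM in the knockout, a rise of 0.48 ± 0.07 (edgeR adjusted p = 0.000489). PRE3 (YJL001W), with the caspase-like site and the only member with an intron in its coding sequence, went from 117 and 125 CPM to 141 and 163 CPM, a rise of 0.33 ± 0.08 (edgeR adjusted p = 0.00915). For PRE3 the call was lost without the first unheated wild type library or without the second unheated knockout library. UMP1 (chrII:581726-582172, minus strand) stood at 84.1 and 95.8 CPM in wild type and at 122 and 146 CPM in the knockout, a rise of 0.57 ± 0.10 (edgeR adjusted p = 0.000841), the second largest of the 34.

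In the regulatory particle the base and the lid gave different counts. Of the base, 9 of 10 genes were called higher, with a median of 0.33, and the exception was RPN1, the scaffold on which ubiquitin receptors dock. RPN1 stood at 710 and 707 CPM in wild type and at 733 and 716 CPM in the knockout (0.03 ± 0.06; edgeR adjusted p = 0.72). The 6 ATPases RPT1 to RPT6 all rose, by 0.31 to 0.43. Of the lid, 3 of 8 genes were called higher, with a median of 0.18: the scaffold subunit RPN6 (0.46 ± 0.06), RPN7 (0.27 ± 0.07) and RPN11 (0.23 ± 0.08), the deubiquitinase. RPN7 was not called without the second unheated wild type library or the second unheated knockout library, and RPN11 not under 10 of the alternatives, library size alone, DESeq2 and limma-voom among them. RPN3, a lid subunit, stood at 315 and 302 CPM in wild type and at 289 and 293 CPM in the knockout, below it in both libraries (-0.08 ± 0.06; edgeR adjusted p = 0.324). The difference between lid and core was not tested.

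**Figure D2:**
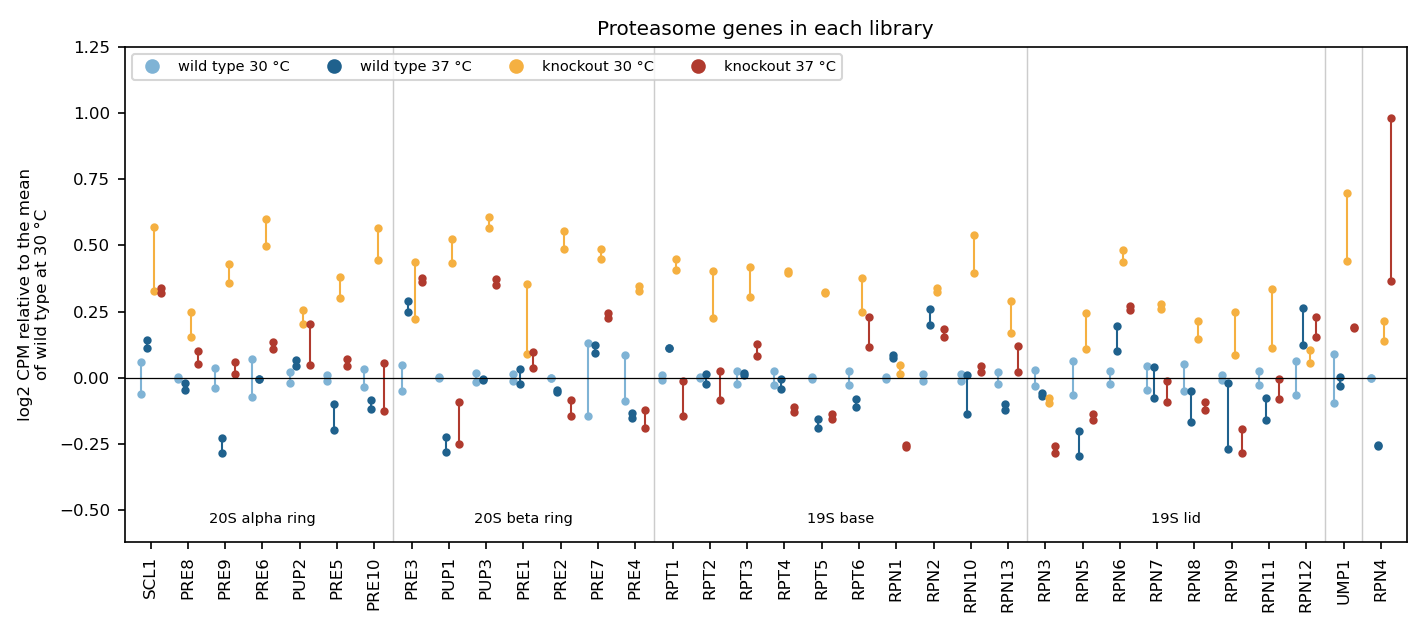
Level of each member in each of the 8 libraries as log2 CPM relative to the mean of unheated wild type (vertical axis); genes along the horizontal axis by part of the complex, the 2 libraries of a group joined by a line. The unheated knockout libraries lie above the other 6 for 26 of the 34 members, and the heated knockout libraries of RPN4 lie far apart, at 167 and 256 CPM.

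The calls were also counted by PACE, and the difference was not tested. Of the 27 members with the 9-base element 21 were called higher in the unheated knockout, with a median of 0.33, and of the 7 without it, of which 3 hold the shorter form, 5 were called higher, with a median of 0.34. Of all genes 14.6% were called higher. Of the 4 members with neither form, UMP1 (0.57), RPN10 (0.47), a ubiquitin receptor, and RPN13 (0.23) were called higher, and RPN4 (0.18) was not called. The call of RPN13 was lost under 7 alternatives. The members with the 9-base element but no call were RPN3 and RPN1, whose elements are printed above, and PRE1, RPN5, RPN9 and RPN12.

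**Figure D3:**
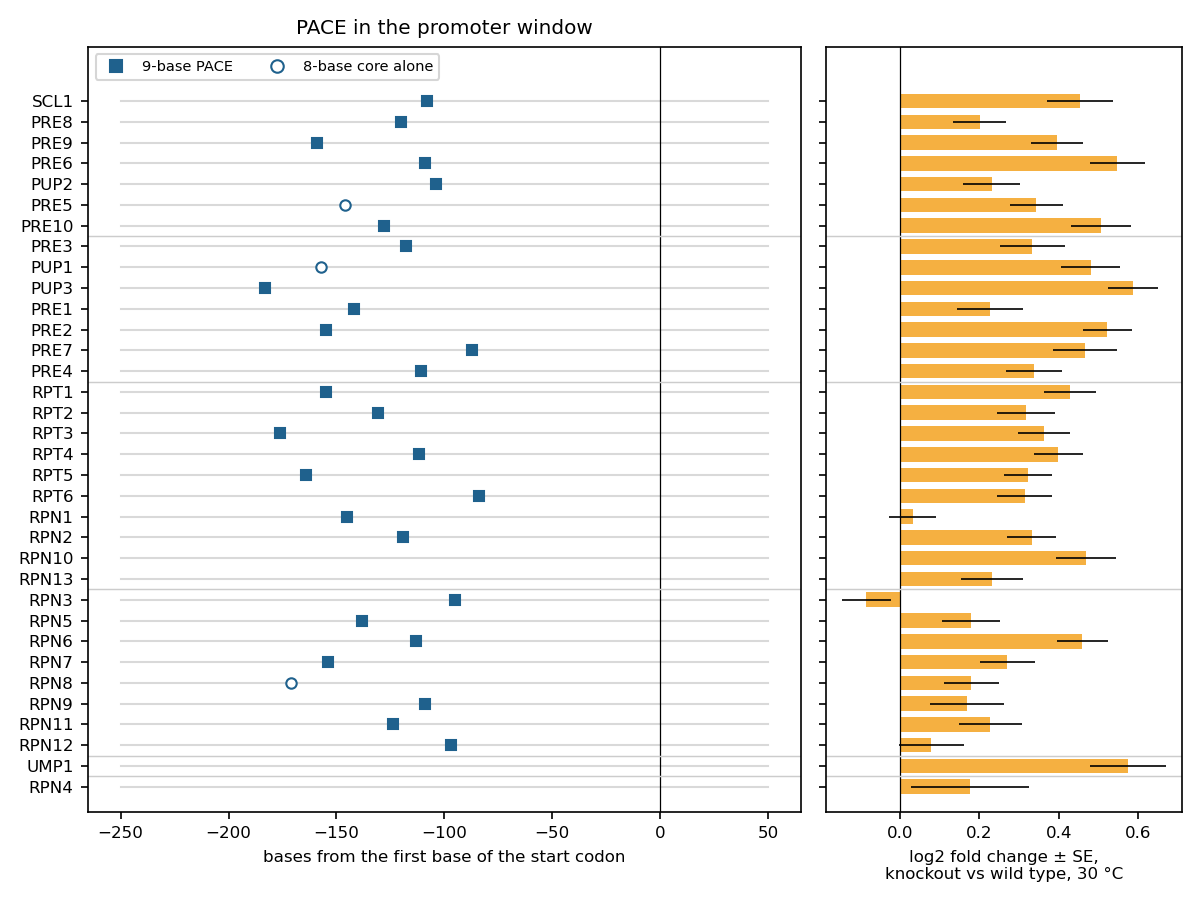
Left, position of the first base of the 9-base PACE (squares) or the 8-base form alone (circles) relative to the start codon (horizontal axis, bases); right, log2 fold change ± SE of unheated knockout against unheated wild type, bars starting at 0. Elements lie 84 to 183 bases before the start, and the 4 members without one reach fold changes of 0.18 to 0.57.

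In wild type, 4 hours at 37 °C moved the proteasome genes little. The summed subunits stood at 7999 and 8095 CPM in heated and at 8024 and 8136 CPM in unheated wild type, a difference of -0.42% in the mean. The median log2 fold change was -0.03 for the members and 0.01 for all genes. Of the 34, 2 were called higher and 4 lower, where 15.7% of all genes were called higher and 17.1% lower. The rises were PRE3 (0.27 ± 0.08; edgeR adjusted p = 0.0244) and the base scaffold RPN2 (0.23 ± 0.06; edgeR adjusted p = 0.0119). The falls were PRE9 (-0.26 ± 0.07; edgeR adjusted p = 0.01), PUP1 (-0.25 ± 0.08), the lid subunit RPN5 (-0.25 ± 0.07) and the ATPase RPT5 (-0.17 ± 0.06). Fewer calls were made whichever wild type library was left out, which leaves 1 library in that group. The values moved less, between 0.22 and 0.32 for PRE3 and between -0.27 and -0.21 for PUP1. More calls, 9 (4 higher and 5 lower), were made with the 4 wild type libraries alone. With both heated knockout libraries left out, a fit added after seeing the data, 9 were called as well. With scaling by library size alone the split became 8 higher and 0 lower, where 26.4% of all genes were called higher and 10.5% lower, and the members' median was 0.10 against 0.13 for all genes. UMP1 stood at 87.9 and 90.2 CPM in heated wild type and did not differ beyond the spread of its unheated wild type libraries.

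In the heated knockout the subunit mRNAs stood close to the level of wild type, and below that of the unheated knockout, under TMM scaling. Summed over the 32 subunits, the level went from 10012 and 10122 CPM to 8200 and 8090 CPM, a change of -19.1% in the mean. The heated knockout then stood 1.22% above heated wild type, while the share of raw counts was 0.906% in the mean against 0.820% in heated wild type, a ratio of 1.10. Of the 34 members, 25 were called lower and 1 higher, where 28.2% of all genes tested were called lower and 30.9% higher. The members' median was -0.29 and that of all genes 0.04. In 28 members both heated libraries lay below both unheated ones, which held for 37% of all genes, and 2 members, RPN4 and RPN12, lay above.

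The size of this fall depends on the scaling. When libraries were scaled by their size alone, the all-gene median moved by 0.24 in this comparison, 9 members were called lower and 3 higher (RPN4, PRE3 and RPN12), where 14.9% of all genes were called lower and 49.5% higher, and 14 of the 34 values were above 0. Relative to the median of all genes, the members' median was -0.32 under both scalings. A change of scaling moves all genes by nearly the same amount, so this agreement was fixed in advance and is no check of the fall. The raw shares of counts were 0.919% and 0.980% in the unheated and 0.912% and 0.899% in the heated knockout. In the other comparisons this move of the all-gene median was 0.13 for heating in wild type, 0.01 for the unheated knockout, 0.13 for the heated knockout against heated wild type and 0.11 for the difference between temperature responses.

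The falls reached every part of the complex under TMM scaling. They numbered 4 of 7 in the alpha ring, 5 of 7 in the beta ring, 8 of 10 in the base and 7 of 8 in the lid, and with library size alone 2, 3, 4 and 0. PUP1 stood at 242 and 228 CPM in the unheated and at 158 and 142 CPM in the heated knockout, a fall of 0.65 ± 0.07 on the log2 scale (edgeR adjusted p = 8.09e-06). PRE2 went from 377 and 395 CPM to 243 and 253 CPM (-0.64 ± 0.06; edgeR adjusted p = 2.33e-06). Both genes' heated libraries lay below those of unheated wild type as well. The alpha subunit PRE10 (-0.54 ± 0.07) and the ATPase RPT4 (-0.52 ± 0.06) followed, and these 4 were also called lower with library size alone. PRE3, the remaining active-site gene, did not follow. It stood at 141 and 163 CPM in the unheated and at 155 and 157 CPM in the heated knockout (0.04 ± 0.08, edgeR adjusted p = 0.722). RPN12 gave 0.11 ± 0.08. UMP1 fell from 122 and 146 CPM to 102 and 103 CPM (-0.39 ± 0.09; edgeR adjusted p = 0.00296), and that call was lost with library size alone and without the second unheated knockout library.

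**Figure D4:**
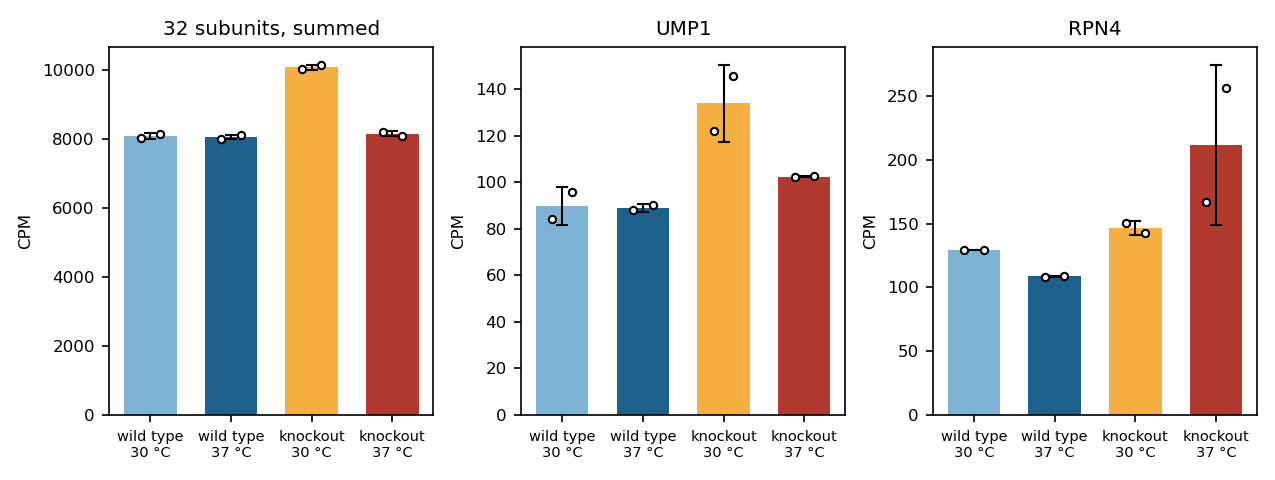
Summed level of the 32 subunits, level of UMP1 and level of RPN4 (vertical axes, CPM, starting at 0) in the 4 groups; bars are means, error bars SD and points the 2 libraries. The subunits and UMP1 are highest in the unheated knockout, at 10012 and 10122 CPM and at 122 and 146 CPM, while RPN4 is highest in the heated knockout, at 167 and 256 CPM.

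RPN4 mRNA was highest in the heated knockout, where the summed subunits stood near the level of wild type under TMM scaling but not as a share of raw counts. RPN4 (chrIV:415113-416708, minus strand) stood at 130 and 130 CPM in unheated wild type, 108 and 109 CPM in heated wild type, 150 and 143 CPM in the unheated knockout, and 167 and 256 CPM in the heated knockout. Both heated knockout libraries lay above the other 6, but they differed 1.53-fold from each other. Against heated wild type, RPN4 rose 1.95-fold in the heated knockout (log2 0.97 ± 0.14; edgeR adjusted p = 9.65e-05). That call was kept without either heated knockout library, with log2 values of 0.61 without the second and 1.21 without the first. Against the unheated knockout it rose by 0.53 ± 0.14 (edgeR adjusted p = 0.00559). This call rests on the second heated library: without it the value was 0.19 (edgeR adjusted p = 0.0562), and without the first it was 0.79.

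The other comparisons of RPN4 were smaller. In the unheated knockout the difference from wild type was 0.18 ± 0.15 (edgeR adjusted p = 0.405), although both libraries lay higher. In wild type heating gave -0.26 ± 0.15 (edgeR adjusted p = 0.222), and the 4 wild type libraries did not overlap. The test shares 1 estimate of spread over all groups. With both heated knockout libraries left out of the fit, the wild type value was -0.24 ± 0.07 (edgeR adjusted p = 0.00882) and the unheated knockout value 0.17 ± 0.07 (edgeR adjusted p = 0.0503). That fit was added after seeing the data. Planned fits on the 4 libraries of each comparison alone gave -0.25 ± 0.07 for heating wild type (edgeR adjusted p = 0.00448). For the unheated knockout against wild type they gave 0.18 ± 0.07 (edgeR adjusted p = 0.063).

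The region upstream of RPN4 holds no PACE within 600 bases of the start codon. It does hold letters of the binding motifs of its known activators. Pdr1 and Pdr3, regulators of drug resistance, bind TCCGCGGA or TCCGTGGA. Matches lay 442 bases before the start on the gene's strand and 399 bases before it on the opposite strand, where they read TCCGTGGA and TCCACGGA. Yap1, a regulator of the oxidative stress response, binds TTACTAA, found 374 bases before the start. The heat shock factor Hsf1 binds repeats that contain GAANNTTC, found 343 and 16 bases before the start. On both strands of the same 600 bases, the Pdr motif is in 1.98% of 5999 protein-coding genes, the Yap1 motif in 13.7% and the Hsf1 motif in 22.8%. The stretch with the upstream matches, in capitals, is printed because RPN4 was highest in another group than most of the genes it activates.
RPN4, chrIV:417024-417170, minus strand: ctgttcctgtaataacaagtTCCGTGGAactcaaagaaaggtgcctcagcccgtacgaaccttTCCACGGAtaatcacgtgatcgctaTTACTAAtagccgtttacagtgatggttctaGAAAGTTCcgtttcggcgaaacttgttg

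Of 6 genes that act on RPN4 or its protein, 4 rose on heating wild type, where 15.7% of all genes did, and 3 on heating the knockout, where 30.9% did. None of the 6 was called lower on heating in either genotype. HSF1 rose by 0.49 ± 0.08 in wild type and 0.38 ± 0.08 in the knockout. PDR1 rose by 0.47 ± 0.08 in wild type but not in the knockout (0.03 ± 0.08), and this difference was called (-0.45 ± 0.12; edgeR adjusted p = 0.0113), though not without the second unheated wild type library or the first unheated knockout library. UBR2 and MUB1 encode the ubiquitin ligase of Rpn4 and its partner. Both were lower in the knockout than in wild type: UBR2 differed by -0.37 ± 0.09 unheated and -0.40 ± 0.08 heated, and MUB1 by -0.32 ± 0.09 unheated and -0.22 ± 0.08 heated. Both unheated calls were lost with DESeq2 and without the first unheated wild type library, MUB1 unheated also without the first knockout library, and its heated call under 7 alternatives.

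Between the genotypes at 37 °C few proteasome genes differed. Of the 34, 6 were called higher and 3 lower in the knockout, where 30.5% of all genes were called higher and 29.2% lower. The members' median was 0.08 and that of all genes 0.01. After RPN4, the rises were led by PUP3, which stood at 175 and 175 CPM in heated wild type and at 228 and 224 CPM in the heated knockout (0.37 ± 0.06; edgeR adjusted p = 0.000273). PRE9 (0.29 ± 0.07), RPT6 (0.27 ± 0.07), PRE5 (0.20 ± 0.07) and SCL1 (0.20 ± 0.08), the last 2 of the alpha ring, were also called higher. Called lower was RPN1, at 752 and 746 CPM in wild type and at 591 and 593 CPM in the knockout (-0.34 ± 0.06; edgeR adjusted p = 0.00035). So were RPN3 (-0.21 ± 0.06) and RPT1 (-0.19 ± 0.07). Without 1 library the calls of RPT1 (either heated wild type library or the second heated knockout library), RPT6 (the second heated wild type library), PRE5 (the first heated library of either genotype) and SCL1 (any library but those of the unheated knockout) were lost. PRE5 was also not called with DESeq2, and SCL1 not with DESeq2, DESeq2 size factors, limma-voom, no filter on low counts or a crossed block. PRE2 (-0.07 ± 0.06), PUP1 (0.08 ± 0.08) and PRE3 (0.10 ± 0.08) were not called, nor was UMP1 (0.20 ± 0.10). With library size alone 18 members were called higher and 1, RPN1, lower, where 38.5% of all genes were called higher and 19.8% lower.

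**Figure D5:**
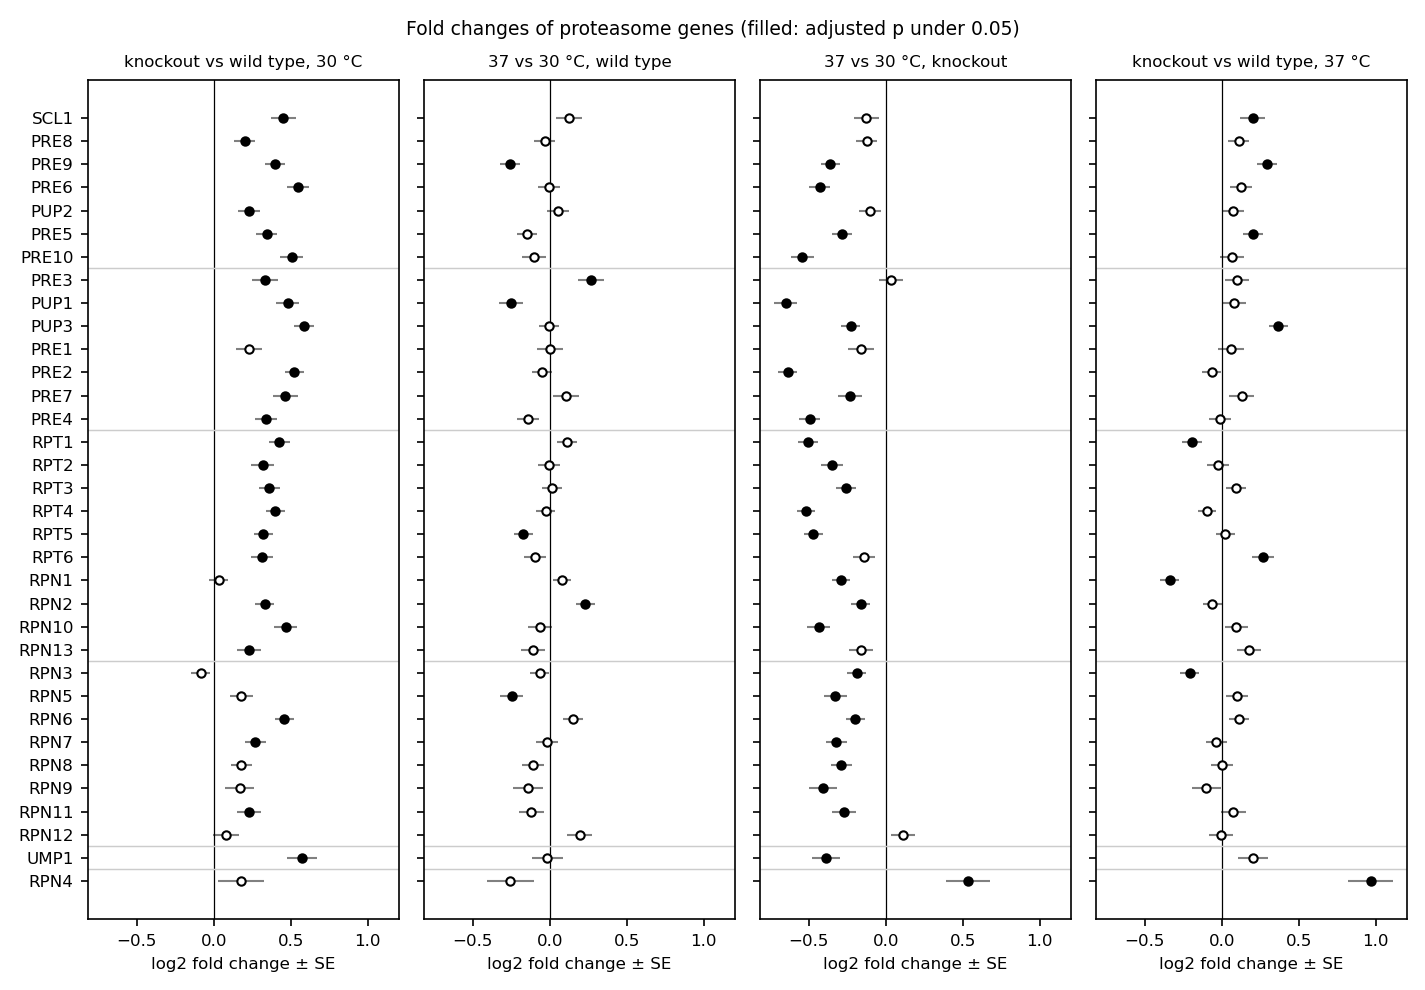
Log2 fold change ± SE of each member (horizontal axes) in 4 comparisons, from left to right knockout against wild type at 30 °C, heating in wild type, heating in the knockout, and knockout against wild type at 37 °C; filled points have an adjusted p under 0.05 under TMM scaling. Most points lie right of 0 in the first panel (26 called) and left of 0 in the third (25 called, or 9 with library size alone), while RPN4 lies to the right of 0 in that panel and in the last.

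The response to heat differed between the genotypes for 17 of the 34 members. The test of this difference, the interaction, called 16 members lower and 1, RPN4, higher, where 17.2% of all genes were called lower and 16.4% higher. The members' median was -0.27 and that of all genes 0.01. The largest were the ATPase RPT1 (-0.62 ± 0.09; edgeR adjusted p = 0.000391) and PRE2 (-0.59 ± 0.09; edgeR adjusted p = 0.000401), followed by RPT4 (-0.49 ± 0.09) and PRE10 (-0.44 ± 0.11). These and the calls of PRE6, RPN1, RPN2 and RPN4, 8 of the 17, were kept under every alternative run. RPT1 stood at 301 and 305 CPM in unheated and 327 and 328 CPM in heated wild type, and at 413 and 402 CPM in unheated and 300 and 274 CPM in heated knockout. Its heated libraries thus lay above the unheated ones in wild type and below them in the knockout. By part, the interaction called 2 of 7 alpha, 4 of 7 beta, 8 of 10 base and 2 of 8 lid genes. RPN4 gave 0.79 ± 0.21 (edgeR adjusted p = 0.0112), and 0.44 without the second heated knockout library. With library size alone 7 members were called lower and 1 higher, where 10.7% of all genes were called lower and 21.1% higher. Fewer members were called without the first unheated wild type library. That fit leaves 1 library in the group, and its share of all genes called is not given here.

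Across the 4 groups, under TMM scaling, the unheated knockout had the highest mean for 29 of the 34 members. For 26 members (76.5%) both of its libraries lay above the other 6, which held for 11.4% of all genes tested. The exceptions were RPN3, highest in unheated wild type, RPN1 and RPN12, highest in heated wild type, and PRE3 and RPN4, highest in the heated knockout. RPN12 stood at 117.9 ± 8.07 CPM in heated wild type and 117.6 ± 4.27 in the heated knockout (SD, n = 2). PRE3 stood at 156 ± 1.20 CPM in the heated and 152 ± 16.0 in the unheated knockout. Both leads lay within the spread of the libraries.

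Of 16 assembly factors and other genes that work with the proteasome, 7 were called higher and 1 lower in the unheated knockout, where the shares of all genes were 14.6% and 15%. On heating the knockout 8 were called higher and 1 lower, where the shares were 30.9% and 28.2%. TMA17, also known as ADC17, a stress-inducible chaperone of base assembly, rose by 0.69 ± 0.15 in the unheated knockout and by 1.61 ± 0.14 in the heated knockout, each against wild type at the same temperature. The base chaperone NAS2 rose by 0.88 ± 0.17 on heating the knockout. SEM1, a small lid subunit that was not among the 34, rose in the unheated knockout (0.33 ± 0.09) and fell on heating it (-0.68 ± 0.09), the directions that most of the 34 took. ECM29, which tethers core and regulatory particle, rose by 1.01 ± 0.08 on heating wild type. HSM3, a base chaperone, was called lower in the unheated knockout (-0.46 ± 0.12), although not with DESeq2 or without either unheated wild type library or the second knockout library.

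Of 26 genes of ubiquitin, its conjugation, Cdc48 and the shuttle receptors, 13 were called higher and 1 lower in the unheated knockout, against 14.6% and 15% of all genes. In the heated knockout against heated wild type 9 were called higher and 10 lower, near the 30.5% and 29.2% of all genes. On heating wild type 13 were called higher and 3 lower, where the shares of all genes were 15.7% and 17.1%. On heating the knockout 7 were called higher and 9 lower, where the shares were 30.9% and 28.2%. The interaction called 1 higher and 12 lower, where the shares of all genes were 16.4% and 17.2%. The polyubiquitin gene UBI4 stood at 98.7 ± 1.11 CPM in unheated wild type, 243 ± 12.9 in heated wild type, 207 ± 15 in the unheated knockout and 472 ± 6.8 in the heated knockout (SD, n = 2). It thus rose with heat and with the knockout, by 0.96 to 1.30 on the log2 scale, and the interaction was not called (-0.11 ± 0.10; edgeR adjusted p = 0.436). UBC5, a ubiquitin-conjugating enzyme, rose by 0.82 ± 0.16 in the unheated and 1.74 ± 0.14 in the heated knockout. The ubiquitin fusion genes RPS31, RPL40B and RPL40A, which also encode ribosomal proteins, fell on heating in both genotypes, by 0.40 to 1.10. The ubiquitin genes share sequence, as do UBC4 and UBC5, and how reads that fit several places were counted is not given in the sources used here, so these levels are uncertain.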

How the data were processed

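The authors deposited raw counts per gene for 8 libraries; STAR and HTSeq and the builds R64 and sacCer3 are named per the submitters' processing notes, with versions, strand use and treatment of multiply mapping reads not given in the sources used here. IDs matched an R64 RefSeq annotation for 6008 genes; the other 684 held 0.164% of counts. Library totals of 4734266 to 5588983 make 3 counts worth 0.537 to 0.634 CPM; at that depth all members were far above the floor.

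Counts were tested with edgeR 4.0.16 in R 4.3.3 (quasi-likelihood F test, TMM, filterByExpr with a minimum count of 10 and total of 15, 1 coefficient per group, Benjamini-Hochberg, threshold 0.05). The code was checked on simulated counts with the same spread in all groups. That check cannot speak for the wider spread of the heated knockout. It recovered fewer simulated 1.5-fold changes for the interaction (54 genes) than for the other comparisons (79 to 87 genes). Each SE equals |log2 fold change| / sqrt(F). The coefficient of variation between libraries of a group, beyond counting error, was 6.19% on 4 residual degrees of freedom. Alternatives were DESeq2 1.42.0, limma-voom (limma 3.58.1), other scalings and filters, each comparison's 4 libraries alone, each library left out, and a replicate block. Added after seeing the data were a crossed block, TMM without the 34 members, and a fit without the heated knockout.

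Members and lists were chosen with earlier results of these data known, and no list was tested as a set. RPN4, UMP1, PRE2, PUP1 and PRE3 are always named. In each comparison up to 4 called members with the largest rise and fall are named, and those against the majority. Up to 3 of each other list are named with the largest rise and fall. Further members were named after their values were seen: PRE1, PRE5, SCL1, RPN6, RPN7, RPN9, RPN10, RPN11, RPN12, RPN13, and RPN1, RPN3 and RPN5 at 30 °C. Promoters were read from R64 with the start codon as the start. Matches to a motif are descriptions.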

Additional observations from a re-analysis of the deposited data

Results flagged for a closer look

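Listed here are the genes whose response to 37 °C differed between knockout and wild type by the interaction test (edgeR adjusted p under 0.05); each value is the log2 response of the knockout minus that of wild type. In the alpha ring these were PRE6 (-0.42) and PRE10 (-0.44). In the beta ring they were PUP1 (-0.40), PRE2 (-0.59), PRE7 (-0.34) and PRE4 (-0.35). The base gave the most: RPT1 (-0.62), RPT2 (-0.34), RPT3 (-0.27), RPT4 (-0.49), RPT5 (-0.30), RPN1 (-0.37), RPN2 (-0.39) and RPN10 (-0.37). The lid gave RPN6 (-0.35) and RPN7 (-0.31). RPN4 gave 0.79, in the opposite direction. Of these members only PRE6, PRE10, PRE2, RPT1, RPT4, RPN1, RPN2 and RPN4 kept the call under every alternative. RPT3 and PRE7 lost it under 8 of 17 alternatives, RPT2 and RPN7 under 6 and RPN10 under 5. Of the other lists, values below 0 were found for SEM1 (-0.76), ECM29 (-0.82), BLM10 (-0.43), an alternative cap of the core, the shuttle receptor DSK2 (-0.57), the membrane ubiquitin ligase SSM4 (-0.53), the Cdc48 partner CUZ1 (-0.74) and PDR1 (-0.45). Values above 0 were found for TMA17 (0.92) and UBC5 (0.92). With 2 libraries a group, no single library could be tested as an outlier.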

How the results depend on the processing

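The 26 calls in the unheated knockout ranged from 19 to 29 over libraries left out, and all were higher. The ranges were 22 to 27 for heating the knockout, 6 to 10 for the genotypes at 37 °C, 10 to 21 for the interaction and 0 to 9 for heating wild type, where DESeq2 called 3. Scaling by library size alone gave 12 calls for heating the knockout (median -0.049), 19 at 37 °C (median 0.20) and 8 for the interaction (median -0.16), and turned the median for heating wild type to 0.10. It also turned PRE2 (0.075) and UMP1 (0.11) on heating wild type and PRE2 at 37 °C (0.060). UMP1 on heating wild type turned without the second unheated (0.082) or the first heated wild type library (0.011). PRE3 on heating the knockout turned without the first unheated library (-0.064, against 0.15 without the second), and PUP1 at 37 °C without the first heated knockout library (-0.028, against 0.15 without the second). None of these values was called under the alternative that turned it, and the cause was not tested. For called genes named by the rule given above, 1594 values over all alternatives kept direction and call and 67 lost the call. Calls of other members are not among these values. Of all members called, those kept under every alternative were 17 of 26 in the unheated knockout and 9 of 26 on heating it. They were 4 of 9 for the genotypes at 37 °C, 8 of 17 for the interaction and 0 of 6 for heating wild type. Replicate numbers did not pair the libraries (correlations of deviations from -0.11 to 0.11): with a replicate block the calls were 5, 26, 26, 9 and 18 for heating wild type, heating the knockout, knockout unheated, knockout heated and the interaction. With the numbers of the heated knockout crossed, 8 were called at 37 °C.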

Other observations

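Besides the 27 members, 45 genes hold the 9-base PACE in the same window. Among them are UBI4, CUZ1, CDC48, UBA1, ECM29 and YAP1, which were also counted in the other lists above. Of the 45 genes, 43 were tested. In the unheated knockout 17 were called higher and 5 lower, with a median log2 fold change of 0.16, where 14.6% and 15% of all genes were. On heating wild type 23 were called higher and 2 lower, with a median of 0.30, where 15.7% and 17.1% were. On heating the knockout 16 were higher and 9 lower, where 30.9% and 28.2% of all genes were. At 37 °C 10 were higher and 13 lower in the knockout, where 30.5% and 29.2% of all genes were. The interaction called 3 higher and 15 lower, where the shares of all genes were 16.4% and 17.2%.

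Of these 45 genes, 7 face a member and share the stretch that holds the element. In the unheated knockout YPI1, opposite RPN11, gave 0.52 ± 0.13 and ALG13, opposite RPT6, gave 0.54 ± 0.15, and both were called higher. The other 5 were not called: NOP14 opposite RPN5 (-0.03 ± 0.07), GCD1 opposite RPT4 (-0.12 ± 0.06), MPO1 opposite SCL1 (-0.34 ± 0.30), YOL038C-A opposite PRE6 (0.04 ± 0.48) and YTH1 opposite RPN7 (0.02 ± 0.13). All 7 are given, and they were named after their values were seen.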
